A study of Drosophila melanogaster with 10 samples.

Results

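Single-summit ATAC-seq peaks with a score of 20 or more in Drosophila S2 cells are described here. They were selected from 1 deposited list of peak summits by a rule that used the number of summits and the score. A peak was taken when it lay on 2L, 2R, 3L, 3R, X or 4, had exactly 1 summit, and had a score of at least 20, where the score is −log10 of the q value from the peak caller. The rule gave 2903 peaks of the 6527 single-summit peaks on these 6 arms (44.5%, 95% Wilson interval 43.3 to 45.7%) and of 15615 peaks in the whole list. The other 3624 single-summit peaks of the arms, with scores under 20, are called weaker single-summit peaks. The 8902 peaks of the arms with more than 1 summit are called multi-summit peaks. In counts of peaks they are placed by their strongest summit. In counts of genes with a peak near a boundary, any of their summits within 500 bp counts, so a multi-summit peak has more than 1 way to be counted.

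The study measured chromatin accessibility in S2 cells, an embryo-derived line with features of hemocytes, the blood cells of the fly. The 10 libraries were 2 independent knockdowns each of LacZ RNAi (the control, a bacterial gene), GAF RNAi, BAP170 RNAi, NURF301 RNAi, and combined NURF301 and BAP170 RNAi, all after 5 days with double-stranded RNA at 10 µg/mL. Every group, the control included, was dsRNA-treated, and all came from the same cell line. Peaks were called once on all libraries together, so the list gives no value for a single RNAi group or replicate, and treatments were not compared here.

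ATAC-seq uses the transposase Tn5, which inserts adapters where DNA is not wrapped in nucleosomes, and a summit marks a point of locally highest signal. Accessible stretches are typical of active promoters, enhancers and insulators, and of the genes that RNA polymerase III transcribes. GAF, encoded by Trl, binds GA-rich DNA and can open chromatin, BAP170 belongs to the PBAP remodeler, and NURF301, encoded by E(bx), belongs to the NURF remodeler.

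The scores that chose the peaks run from 20.03 to 62828, with a median of 71.6 and quartiles of 36.8 and 138, and those of weaker single-summit peaks run from 1.305 to 19.9, with a median of 4.48. Just inside the threshold were a peak inside E2f1, which encodes a cell cycle transcription factor, at 20.03, a peak 12 bp outside the kinesin gene Klp68D at 20.05, and a peak inside PVRAP, also at 20.05. Just outside it were a peak 11 bp inside CG9386 at 19.87, a peak 33 bp inside the neuropeptide receptor gene Pdfr at 19.82, and a peak 191 bp outside the ribosomal protein gene RpL17, also at 19.82. The list gives summits of 1 bp and no peak widths, so whether the peaks are narrow cannot be checked, and they are called here by their number of summits. They stood somewhat apart from other summits. The median distance to the nearest other summit was 1605 bp, against 1237 bp for weaker single-summit peaks, and 67.1% had no other summit within 1000 bp, against 58.7%, a difference of 8.35 percentage points (95% Newcombe interval 6.00 to 10.7). Peaks of 1 list are not replicates, so no p-value is given, and the intervals throughout cover counting error only.

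The single-summit peaks of 20 or more lay close to the ends of protein-coding genes. Their median distance to the nearest annotated boundary, either end of a gene, was 422 bp (95% interval of the median 343 to 504 bp), with quartiles of 76.5 and 3693 bp. The median was 2326.5 bp (2154 to 2498 bp) for weaker single-summit peaks and 910.5 bp (825 to 995 bp) for multi-summit peaks. Within 500 bp of a boundary were 1503 of the 2903 peaks (51.8%, 49.96 to 53.6%), against 867 of 3624 weaker ones (23.9%, 22.6 to 25.3%), a difference of 27.9 percentage points (25.5 to 30.1). The share was 43.0% for multi-summit peaks, 8.74 points lower (6.65 to 10.8), while 15.1% of all positions of the 6 arms lie that close to a boundary. At 100 bp the shares were 30.9% and 8.50% for the stronger and weaker single-summit peaks.

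The peaks straddled the boundary. Of the 1503 near one, 727 (48.4%, 45.9 to 50.9%) were on its outer side, and 14.0% of all 2903 peaks fell into the 100 bp just outside the gene and 16.7% into the first 100 bp inside it. On the inner side the share was 7.17% in the next 100 bp and 1.34% in the 100 bp after that. Weaker single-summit peaks had 4.72%, 3.34% and 1.93% in these inner steps. The gene table used gives no strand, so a boundary can be a transcription start site (TSS) or a gene end, and these were not told apart.

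**Figure D1:**
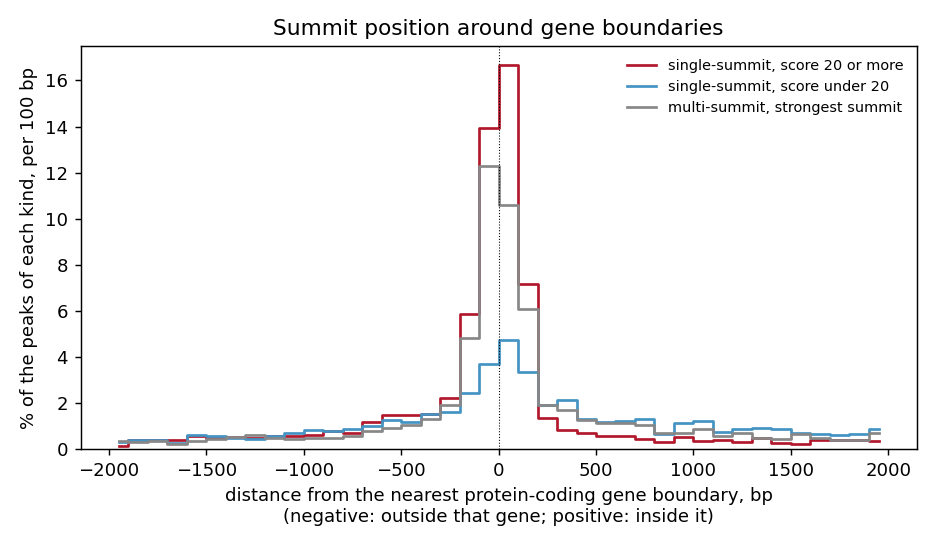
Share of peaks (y axis, percent of the peaks of each kind per 100 bp) by the distance of the summit from the nearest protein-coding gene boundary (x axis, bp, negative outside that gene and positive inside it). Red is single-summit peaks of 20 or more, blue weaker single-summit peaks and gray multi-summit peaks, and the red line has its highest step, 16.7%, in the first 100 bp inside genes, where the blue line reaches 4.72%.

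Taken over all peaks of each kind, a smaller share of the stronger than of the weaker single-summit peaks lay inside genes. In all, 1807 of 2903 (62.2%, 60.5 to 64.0%) lay inside a protein-coding gene, against 73.8% of weaker ones, a difference of -11.6 points (-13.8 to -9.29), with 67.6% of all positions inside one. The peaks inside a gene but more than 500 bp from any boundary numbered 943 (32.5%), against 57.7% of weaker single-summit peaks and 56.8% of positions. These are shares of all peaks or positions, so a larger share near boundaries leaves less for this class. Outside genes but within 500 bp were 639 peaks (22.0%), against 7.78% of weaker ones and 4.33% of positions. The 457 peaks outside genes and more than 500 bp away (15.7%) compare with 18.4% of weaker ones and 28.1% of positions.

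**Figure D2:**
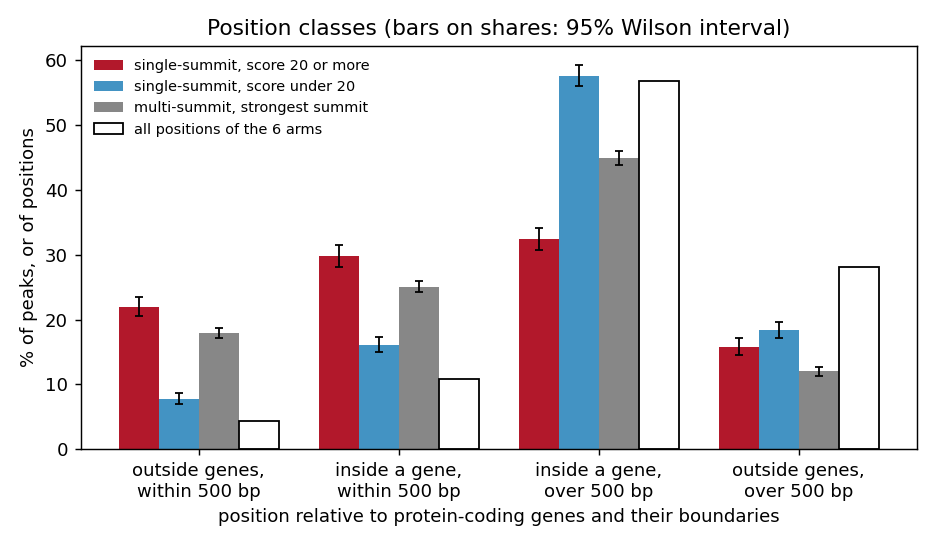
Percent of peaks (y axis) in 4 position classes (x axis), for single-summit peaks of 20 or more (red), weaker single-summit peaks (blue) and multi-summit peaks (gray), with 95% Wilson intervals, beside the percent of all positions of the 6 arms (white). Inside genes and over 500 bp from a boundary, the red bar is at 32.5% and the blue bar at 57.7%, next to 56.8% of positions.

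Many of the peaks near a boundary had more than 1 gene end close by. Of the 1503, 718 (47.8%, 45.3 to 50.3%) had 2 or more protein-coding genes within 500 bp, against 38.1% (34.9 to 41.3%) of the weaker peaks near a boundary and 52.5% (50.9 to 54.1%) of multi-summit peaks. Of the 718, 445 lay inside a protein-coding gene and 273 outside. A gene can therefore be counted for a peak that belongs to its neighbor.

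The position moved with the score on both sides of the threshold, and not in 1 direction throughout. The share within 500 bp of a boundary was 17.2% (14.7 to 20.002%) in the lowest band, scores from 1.3 to 2, and 31.6% (28.6 to 34.8%) from 10 to 20. It went from 37.6% (33.5 to 41.9%) between 20 and 30 to 62.2% (58.4 to 65.9%) between 100 and 200. In the 79 peaks of 500 or more it was 34.2% (24.7 to 45.2%), with a median distance of 2256 bp, and 32.9% (23.6 to 43.9%) of these lay outside genes and away from boundaries.

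**Figure D3:**
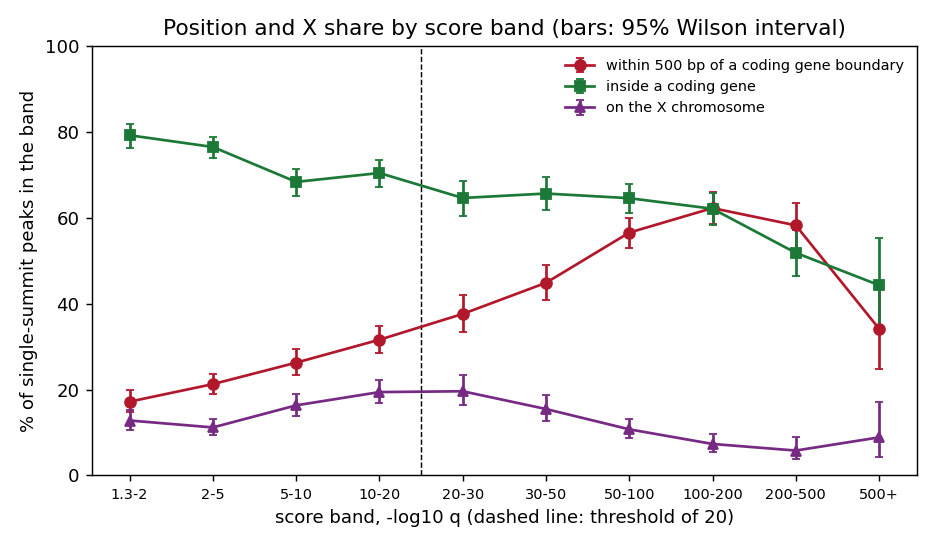
Percent of single-summit peaks (y axis) that lie within 500 bp of a protein-coding gene boundary (red circles), inside such a gene (green squares) or on X (purple triangles), by score band in −log10 q (x axis, the dashed line is the threshold of 20), with 95% Wilson intervals. The red line is highest between 100 and 200, at 62.2%, and falls to 34.2% at 500 and above, while the purple line peaks at 19.6% between 20 and 30.

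Most of the highest scores belonged to peaks away from gene boundaries. Of the 10 highest, 9 lay more than 500 bp from a boundary, 6 lay outside protein-coding genes, and 4 were on 2R. The top score, 62828, was at position 22433143 of X, 11084 bp outside CG14621, and the next, 33383, at 6347721 of 2R, 92455 bp from the phospholipase D gene Pld. A peak of 12345 lay at 15619175 of 3R, 16293 bp from CG43335, and a peak of 11525 at 10951666 of 2R, 9928 bp from the serpin gene Spn47C. A peak of 10925 at 1909092 of 3R was inside the myosin gene Myo81F, whose annotation runs from 567076 to 2532932, and 623840 bp from its nearer end, the largest such distance among the 2903. Next came a pair inside Plc21C, a phospholipase C gene, at 348173 and 355194 of 2L, with scores of 9365 and 8402. The second of these was 371 bp outside Ent1, a nucleoside transporter gene, and was the only peak of the 10 near a boundary. The last of the 10 were a peak of 4168 at 5056054 of 2R, 9183 bp from the troponin C gene TpnC41C, a peak of 3736 at 20106601 of 2R, 4910 bp from the Toll family gene 18w, and a peak of 3455 at 17118330 of X, inside CG5004. Scores this high stand apart from the third quartile of 138, and of the 24 peaks of 1000 or more, 4 were within 500 bp of a boundary. How reads that fit several places were treated is not given in the sources used here. Whether repeated sequence raised these scores was not tested.

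On 3L the highest score was 2161, at 25134051, 7880 bp from UQCR-11, which encodes a subunit of respiratory complex III. On chromosome 4 it was 751, at 1031798, inside ATPsynbeta, which encodes the beta subunit of ATP synthase, and 41 bp outside its neighbor CG11076. The other peaks farthest from protein-coding gene boundaries had scores of 112 or less. They were 67.5 and 25.6 at 11426 and 173801 of 3R, on the outer side of Myo81F by 555650 and 393275 bp, and 112 and 35.6 at 23487537 and 23473356 of X, 379206 and 365025 bp from ATbp. The peaks on X were closer to a noncoding gene, 50678 and 64859 bp from mir-10404-5.

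Genes with one of these peaks within 500 bp of a boundary numbered 2110 of 13922 protein-coding genes (15.2%, the background for every list that follows). The corresponding shares were 8.28% for weaker single-summit peaks and 45.2% for multi-summit peaks, the latter by any of their summits, here and in the lists. Of the 2110 genes, 1479 (70.1%, 68.1 to 72.0%) had no multi-summit peak at either boundary. By gene length the share was 7.43% (6.49 to 8.48%) for genes of up to 1000 bp, 18.3% (17.1 to 19.5%) from 2000 to 5000 bp, and 14.3% (10.9 to 18.7%) over 50000 bp. The 19 gene lists were chosen with earlier results of these data known, and their shares are descriptions.

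The homeotic genes, which specify segment identity along the body axis, had the highest share of the lists. A single-summit peak of 20 or more lay within 500 bp of a boundary in 5 of 8 (62.5%, 30.6 to 86.3%), a weaker one in 0 of 8 and a multi-summit peak in 1 of 8. The scores were 369 at abd-A (3R, from 16807214 to 16830049), 322 at lab (6661427 to 6678590), 101.3 at Dfd, 97.5 at Scr and 79.8 at Ubx. The peak at Scr, at position 6823059, also lay 24 bp from tRNA:Lys-TTT-2-4, so the gene it belongs to cannot be told. The multi-summit peak was at pb, with 41.3. Inside the same 8 genes were 8 of the stronger single-summit peaks, 3 of them in Abd-B (33.1 to 212), 2 in Antp (27.9 and 44.4), and 1 each in Ubx (311), Scr (230) and pb (129), and 2 weaker ones.

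Among the housekeeping lists, the intervals of the proteasome, aminoacyl-tRNA synthetase and cytosolic ribosomal protein genes lay above the background of 15.2%, and those of the other lists held it. Multi-summit peaks were more frequent than single-summit peaks in each of them. Proteasome genes had one of the single-summit peaks in 17 of 48 cases (35.4%, 23.4 to 49.6%) and a weaker one in 2 (4.17%). The highest were Prosbeta3 (315), Prosbeta5 (247) and Prosbeta7 (213), which encode subunits of the 20S core. The list also holds paralogs marked R or T in their symbols, such as Prosbeta4R1 and Prosalpha4T1. Among these paralogs only Rpt3R (32.5) had one of the peaks, and the 35.4% covers both groups. The aminoacyl-tRNA synthetase genes, which encode the enzymes that charge tRNAs, had one of the peaks in 10 of 33 cases (30.3%, 17.4 to 47.3%). The highest were GlnRS (279), TyrRS (267) and AspRS-m (247). A weaker peak lay at 7 of the 33 (21.2%, 10.7 to 37.8%), also above the 8.28% of all protein-coding genes, so the excess was not particular to the stronger peaks. Cytosolic ribosomal protein genes had one of the stronger peaks in 24 of 93 cases (25.8%, 18.0 to 35.5%), among them RpL30 (250) and RpL7 (224). A weaker one lay at 9 (9.68%), while 81.7% had a multi-summit peak. For oxidative phosphorylation the count was 18 of 84 (21.4%, 14.0 to 31.3%), with ATPsynbeta (751), COX7B (297) and ND-B17 (150.5) highest. For mitochondrial ribosomal proteins it was 12 of 73 (16.4%, 9.66 to 26.6%), near the background, with mRpL21 (412), mRpL13 (224) and mRpS10 (218) highest.

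The lists of chemosensory receptor and cuticle protein genes were below the background. Chemosensory receptors, which sense odors and tastes, had one of the peaks in 6 of 179 cases (3.35%, 1.55 to 7.12%), at Ir25a (114), Gr59f (101.8) and Or43a (94.9) among others, and a weaker one in 0. Cuticle protein genes had one in 2 of 110 cases (1.82%, 0.50 to 6.39%), Lcp9 (65.3) and Cpr49Ab (21.7). Heat shock genes, which stress induces, had one in 1 of 16 cases (6.25%, 1.11 to 28.3%, an interval that holds the background), at Hsp70Ba (87.4), and a multi-summit peak in 9.

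The cell type marker lists are too short to be told from the background. Of 12 hemocyte genes, 1 had a single-summit peak of 20 or more near a boundary (8.33%, 1.49 to 35.4%), Hml, which encodes hemolectin, with 33.1, and 7 had a multi-summit peak. Sr-CI, NimC1, vkg and Col4a1 had no peak of any kind there. Inside the 12 genes lay 8 of the peaks and 17 weaker ones, 3 of the 8 in ush, a GATA cofactor gene, with scores from 59.3 to 146. Of the markers of other cell types, the counts were 1 of 5 neuronal genes, brp (223), 2 of 4 germline genes, nanos (152) and vas (64.4), 0 of 5 muscle genes and 0 of 5 gut and fat body genes. A count of 0 of 5 allows a share of up to 43.4% by the Wilson interval.

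None of the 3 genes targeted by RNAi had one of the peaks within 500 bp of a boundary, a count that allows a share of up to 56.1%. Bap170 and E(bx) each had a multi-summit peak within 500 bp of a boundary, with 384 and 238. Trl had no peak of any kind there and held 1 of the single-summit peaks inside the gene. Of the 4 NURF genes, Caf1-55, a histone-binding subunit, had one of the peaks (240) and no multi-summit peak, whereas Iswi, the ATPase, and Nurf-38 had multi-summit peaks (127 and 146). Of the 10 PBAP and BAP genes, 3 had one of the peaks (30%, 10.8 to 60.3%). They were Bap60 (117), polybromo (76.6), which is particular to PBAP, and Snr1 (66.7), a core subunit, and polybromo also had a multi-summit peak of 15.7. The other subunit genes Bap55 (259), brm (40.1), mor (373), osa (76.7) and e(y)3 (53.2) had multi-summit peaks, and Bap111 had a weaker single-summit peak (15.7). Every one of the 15 insulator and promoter-binding protein genes had a multi-summit peak, with scores from 40.4 at dwg to 482 at pzg. Of these, M1BP (133), Ibf1 (87.4) and Dref (35.0) also had one of the single-summit peaks, and BEAF-32, su(Hw), CTCF, Cp190, mod(mdg4), Chro, Clamp, pita, Ibf2, ZIPIC, dwg and pzg had none within 500 bp.

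**Figure D4:**
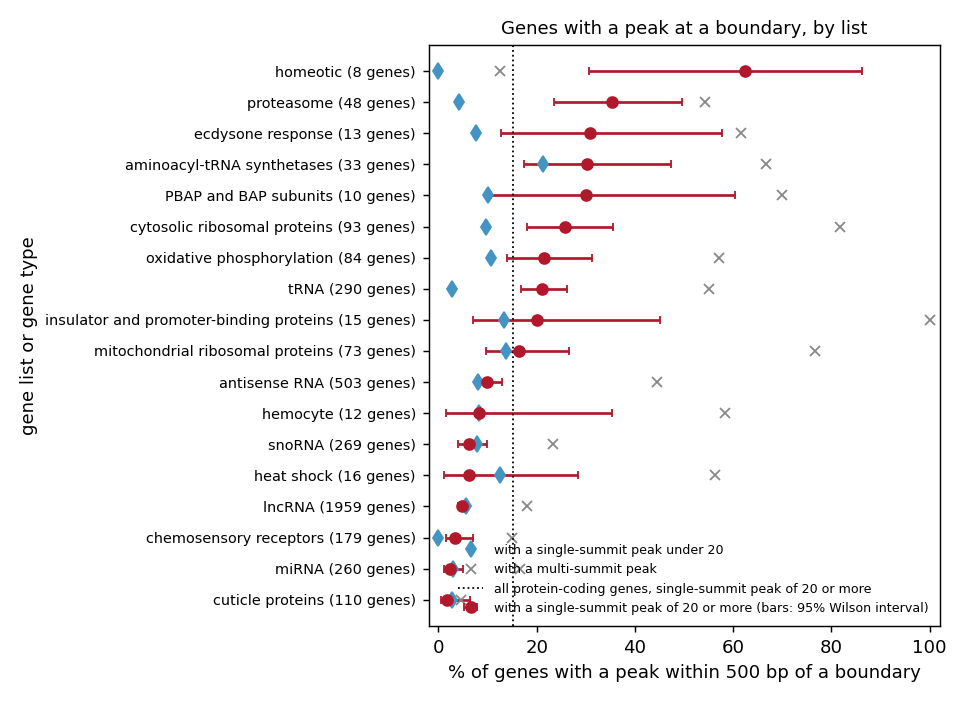
Percent of genes (x axis) with a peak within 500 bp of a boundary, for gene lists of 8 or more genes and types of noncoding gene (y axis). Red circles with 95% Wilson intervals are single-summit peaks of 20 or more, blue diamonds weaker ones, gray crosses multi-summit peaks, and the dotted line is the 15.2% of all protein-coding genes; homeotic genes are at 62.5% and cuticle protein genes at 1.82%.

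The 1807 peaks inside protein-coding genes had 1547 host genes, of which 1331 held 1 peak, 136 held 2, and 80 held 3 or more. Hosts were long, with a median of 5999 bp against 2163 bp for all protein-coding genes, though shorter than the hosts of weaker single-summit peaks, at 9129.5 bp. Per length, long genes held fewer. There were 41.2 of the peaks per Mb in genes of up to 1000 bp and 11.0 per Mb in genes over 50000 bp, against 37.997 and 19.2 for weaker ones. Among genes over 50000 bp, 314 of the 332 peaks they held were more than 500 bp from any boundary.

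The host with the most was Eip75B, an early ecdysone-response gene that encodes a nuclear receptor, with 13 peaks over 113744 bp of 3L, or 11.4 per 100 kb. It also held 4 weaker single-summit peaks and 15 multi-summit peaks. In order along the gene from 17961825 to 18063400, the 13 scores were 78.1, 172, 247, 33.1, 73.5, 26.6, 464, 21.0, 180, 70.1, 115, 52.9 and 589. High and low scores were mixed along the gene, and the highest was the last, 1296 bp from the end of the gene. Of the 13, 1 was within 500 bp of a boundary, 423 bp from that of CG42393.

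Among ecdysone-response genes, which act downstream of the molting hormone, more genes held a peak inside than had one at an end. Of 13 such genes, 8 held 36 of the peaks (61.5%, 35.5 to 82.3%), beside 20 weaker ones, while 1547 of 13922 protein-coding genes held one (11.1%). The list has a median length of 50703 bp, and long genes hold more peaks each. Per length, the 13 genes held 55.4 of the peaks and 30.8 weaker ones per Mb. All protein-coding genes over 50000 bp held 11.0 and 19.2, and those from 10000 to 50000 bp held 16.8 and 32.1. Eip75B, named above as the host with the most, gave 13 of the 36. Multi-summit peaks numbered 18 in EcR, 12 in Eip74EF and 8 in Hr4, more than the peaks of 20 or more in each. Eip74EF, an ETS-domain factor gene, held 5 (23.2, 42.0, 217, 345 and 402). Hr4, a nuclear receptor gene on X, also held 5 (26.4, 28.4, 34.5, 104 and 601). EcR, the gene of the hormone receptor, held 5 (42.8 to 142), of which those of 95.8 and 42.8 lay 24 and 30 bp from tRNA:Asn-GTT-1-3 and tRNA:Lys-CTT-1-3. The nuclear receptor gene ftz-f1 held 3 (40.5 to 931), Hr3 held 2 (467 and 555), br held 2 (47.0 and 163), and Hr39 held 1 (142). Eip78C, usp, MsrA, Blimp-1 and Eip93F held none. Near their boundaries, 4 of the 13 genes had one of the peaks, Hr4 (126), Eip74EF (86.1), MsrA (63.7) and Eip75B (40.7). The interval of this share (30.8%, 12.7 to 57.6%) holds the background of 15.2%. A multi-summit peak lay near a boundary in 8 of the 13.

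The other leading hosts were also long. The bunched gene bun, a TSC-22 family gene, held 9 peaks (20.5 to 692), and the noncoding gene lncRNA:CR44999 on X held 9 (36.8 to 189), of which the peak of 144 lay 26 bp from tRNA:Gln-TTG-2-1. Tet, the fly ortholog of the TET dioxygenases, held 8 (29.1 to 527), and Svil, the supervillin gene, held 8 (59.0 to 835) with a median of 153. With 6 each followed CenG1A (24.3 to 102.2), mam, the Notch coactivator gene mastermind (30.6 to 828), heph, a polypyrimidine tract-binding protein gene (23.4 to 289), and pum, the RNA-binding pumilio gene (20.7 to 88.2). With 5 each, tied with the ecdysone genes at the tenth place, were Hnf4 (20.5 to 147), Sarm (45.7 to 137), the growth factor gene Pvf3 (26.6 to 76.2), the kinase gene Tlk (49.2 to 262) and the perlecan gene trol (23.4 to 40.7). Hnf4 was the shortest of these, 22386 bp, with 22.3 peaks per 100 kb, and Pvf3 was the host in this group without any multi-summit peak. Weaker single-summit peaks were more numerous in lncRNA:CR44999 (14), Svil (12), Tet (11), heph (9) and trol (7), and equal in pum and Tlk. They were fewer in bun (8), CenG1A (3), mam (2), Sarm (2), Hnf4 (1) and Pvf3 (1). Multi-summit peaks outnumbered the peaks of 20 or more in all of these hosts except CenG1A, Hnf4 and Pvf3.

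A separate set of the peaks lay at tRNA genes, which RNA polymerase III transcribes. Within 500 bp of a tRNA gene were 50 of the 2903 peaks (1.72%, 1.31 to 2.26%), against 8 of 3624 weaker ones (0.221%, 0.112 to 0.435%), a difference of 1.50 points (1.04 to 2.05), and 0.843% of multi-summit peaks. The summits were tightly placed. The median distance to the tRNA gene was 23.5 bp, with quartiles of 19.25 and 29.75 bp, 48 of the 50 were within 50 bp, and 48 were on the outer side of the gene. The 75 multi-summit peaks near tRNA genes also had their strongest summit on the outer side in 73 cases, at a median of 30 bp. Of the 8 weaker single-summit peaks there, 6 were within 50 bp and 6 on the outer side, at a median of 32.5 bp. The placement was thus shared by all kinds of peak. Of the 50 peaks, 39 were more than 500 bp from any protein-coding boundary and 23 were inside a protein-coding gene, and those 39 are not among the 1503 near a boundary.

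The scores at tRNA genes ran from 23.6 to 743, with a median of 134. The highest were 743 at tRNA:Thr-AGT-1-7 on 3R, 17 bp from the gene, 740 at tRNA:Arg-ACG-1-4 on 2R, 56 bp from it, and 735 at tRNA:Ile-TAT-1-1 on 3L, 34 bp from it. The lowest were 24.3 at tRNA:Ser-AGA-2-3 and 23.6 at tRNA:Ala-AGC-2-10. Counted by gene, 61 of 290 tRNA genes (21.0%, 16.7 to 26.1%) had one of the peaks within 500 bp, and 8 (2.76%, 1.40 to 5.35%) had a weaker single-summit peak. A multi-summit peak lay at 160, counting any of its summits and not the strongest alone. By amino acid, the counts were 4 of 10 for Asn, 8 of 22 for Leu, 4 of 11 for Ile and 5 of 15 for Val. For elongator Met the count was 2 of 6, for Glu and Lys 6 of 19 each, and for Gly 5 of 20. Low counts were 3 of 26 for Arg, 1 of 20 for Ser, 0 of 8 for Phe, 0 of 7 for Cys, 0 of 6 for initiator Met and 0 of 5 for His. Multi-summit peaks lay at 7 of the 8 Phe, 6 of the 7 Cys, 5 of the 6 initiator Met and 4 of the 5 His genes. By arm, tRNA genes with a single-summit peak of 20 or more were 25 of 98 on 2R, 14 of 48 on 3L, 14 of 79 on 3R, 7 of 41 on 2L and 1 of 24 on X. Many tRNA genes exist as near-identical copies, and how reads that fit several copies were treated is not given in the sources used here. Other noncoding genes had lower shares, 9.94% of 503 antisense RNA genes, 6.32% of 269 snoRNA genes, 4.90% of 1959 lncRNA genes and 2.31% of 260 miRNA genes, each close to its share for weaker peaks, which was 8.15%, 7.81%, 5.62% and 3.08%. Both annotated genes of the signal recognition particle RNA had one of the peaks.

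Across the chromosomes the peaks were spread widely. The counts were 573 on 2L, 550 on 2R, 665 on 3L, 729 on 3R, 344 on X and 42 on 4. Per 100 protein-coding genes these were 19.3 to 24.3 on the large autosome arms, 15.7 on X and 52.5 on 4. Weaker single-summit peaks numbered 22.4 to 31.7 on the large autosome arms, 24.1 on X and 47.5 on 4. Multi-summit peaks numbered 63.8 to 71.0, 50.8 and 106, so the high density per gene on 4 was shared by all kinds of peak. Chromosome 4 has 62.9 protein-coding genes per Mb, against 97.8 to 114 on the large autosome arms. Per Mb up to the last gene end, peaks of 20 or more numbered 33.0 on 4 and 21.8 to 24.6 on those arms. Weaker single-summit peaks numbered 29.9 per Mb on 4, within the 25.3 to 31.0 of those arms. Of 136 windows of 1 Mb, without chromosome 4, 1 held none of the peaks, the median was 22.5 with quartiles of 12.75 and 29, and the highest count was 50, in the window that starts at 18 Mb of 3L, which also held 50 weaker single-summit peaks and takes in part of Eip75B. Chromosome 4, small and rich in heterochromatin, had a median score of 110 and 14 of its 42 peaks within 500 bp of a boundary (33.3%, 21.0 to 48.4%). That share was 7.89% (2.72 to 20.8%) for its weaker single-summit peaks and 11.4% for its positions, so the stronger peaks were nearer to boundaries there too.

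The X chromosome differed in where its weaker peaks lay. Its single-summit peaks passed the threshold in 39.4% of cases (36.2 to 42.7%), against 43.4% to 46.7% on the large autosome arms, and the median score of its peaks of 20 or more was 45.8, against 70.8 to 82.995. X held 11.8% of the peaks of 20 or more and 14.6% of the weaker ones, a difference of -2.75 points (-4.38 to -1.09), which with a threshold of 10 became 0.42 (-1.26 to 2.07). Peaks of 20 or more lay within 500 bp of a boundary in 54.9% of cases on X (49.7 to 60.1%) and 51.6% on the large autosomes (49.7 to 53.6%), and these intervals overlap. For weaker single-summit peaks the shares were 40.3% on X (36.2 to 44.5%) and 21.3% on the large autosomes (19.9 to 22.8%). The difference between stronger and weaker peaks was thus 14.7 points on X (7.91 to 21.3) and 30.4 points on the large autosomes (27.9 to 32.8).

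Band by band, X peaks lay at boundaries more often than autosomal peaks of like score, except at the highest scores. From 10 to 20 the shares were 53.7% on X (46.0 to 61.1%) and 26.7% on the large autosomes (23.5 to 30.2%), from 20 to 50 they were 60.1% (53.0 to 66.8%) and 37.7% (34.5 to 40.9%), and at 50 or more 48.7% (41.0 to 56.5%) and 59.2% (56.8 to 61.6%). Among all single-summit peaks within 500 bp of a boundary, the median score was 18.3 on X (402 peaks) and 49.2 on the large autosomes (1951 peaks), while away from boundaries it was 9.54 and 8.24. The quartiles of the boundary peaks were 7.21 and 40.2 on X and 10.7 and 116 on the autosomes, so the threshold of 20 cut the X set just above its median and the autosomal set below its median. The score grows with the number of reads at a locus, and so with the copy number of a chromosome. Reads and copies per chromosome were not analysed here. A general shift of scores on X therefore cannot be told apart from a difference in where its peaks lie.

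**Figure D5:**
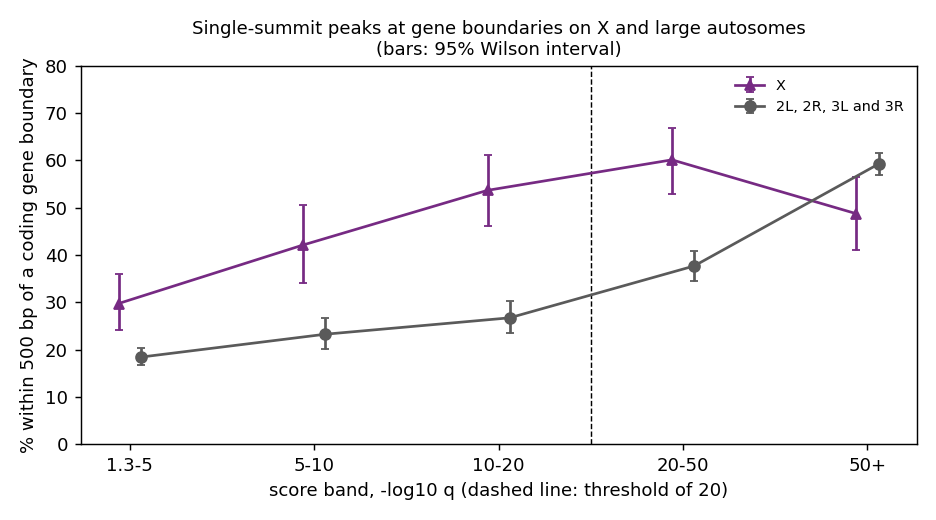
Percent of single-summit peaks within 500 bp of a protein-coding gene boundary (y axis) by score band in −log10 q (x axis, the dashed line is the threshold of 20), on X (purple triangles) and on 2L, 2R, 3L and 3R together (gray circles), with 95% Wilson intervals. From 10 to 20, X is at 53.7% and the autosomes at 26.7%, and at 50 or more X is at 48.7% and the autosomes at 59.2%.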

How the data were processed

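ATAC-seq of 10 S2 cell libraries was summarised by the authors in 1 list of 39806 summits of 1 bp, on the dm6 build, pooled over all libraries. Named in the submitters' processing notes are DESeq2 1.26.0, MACS2 2.1.0.20150731, deepTools 3.1.3 and Bowtie2 2.3.5.1, without the step each served. The deposited score is a −log10 q-value. Read filters and any Tn5 offset were not given in the sources used here. No depth can be given for single libraries, and the score grows with it.

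Summits were assigned to peaks by dropping the letters at the end of the peak name. Gene intervals came from the RefSeq table of Release 6, with 13922 protein-coding genes and 17684 genes of any type on the 6 arms, without strand, exons or sequence, so no sequence is shown. Boundaries were both ends of a gene, near meant within 500 bp, and inside meant between the ends. The background of positions counted each base of an arm up to its last annotated gene end. Shares have 95% Wilson intervals, their differences Newcombe intervals, and medians binomial intervals. No hypothesis test was made, since the list holds no replicates. List genes were matched by symbol, with MsrA for Eip71CD and CG4456 for Hsp67Bb by synonym.

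The members and gene lists were chosen with earlier results of these data known. Named were the 10 highest peaks, the highest of each arm, and the 10 hosts with the most peaks (with ties). Also named were the 5 peaks farthest from protein-coding gene boundaries, the 3 highest genes of each list, and the 3 peaks nearest either side of the threshold. Every gene of the lists of RNAi targets, NURF, PBAP and BAP, and insulator proteins was named as well. A gene that this rule names is not reported here. The tRNA genes, the bottom of lists, further homeotic, hemocyte and ecdysone genes, and the X bands were named after their values were seen. Alternatives were thresholds of 10 and 30, distances of 250 and 1000 bp, all gene types, isolated summits, and the arms without 4. The interval and distance functions were tested on simulated data. Python 3.11.15, numpy 2.4.6, pandas 2.3.3 and matplotlib 3.10.9 were used.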

Additional observations from a re-analysis of the deposited data

Results flagged for a closer look

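Outside the 6 arms, the list held 114 single-summit peaks, of which 77 had a score of 20 or more (67.5%, 95% Wilson interval 58.5 to 75.4%), against 44.5% on the arms. They were set aside by the rule and were looked at because they are a signal in data that the comparisons do not use. Of the 77, 8 were on Y, 69 on unplaced scaffolds and 0 on the mitochondrial genome, over 58 sequences. Their median score was 166 and the highest 65224. The list has no control library of its own to set them against.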

How the results depend on the processing

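No paired analysis was possible because there is 1 pooled list with no replicate columns, and for the same reason no library could be left out. The description of promoter sequences was not run, since no sequence was given. The differences between stronger and weaker peaks under each alternative were chosen after seeing the data. Of 48 values under the alternatives, 23 stayed within the interval of the reported value, 24 moved beyond it and 1 changed sign.

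With a threshold of 10, the near share was 47.2%, the median distance 644 bp, the inside share 64.1%, the X share 13.6%, the share of single-summit peaks selected 57.4%, and the share of protein-coding genes 17.4%, and the X difference changed sign, to 0.42 points. With a threshold of 30 these were 54.7%, 294 bp, 61.8%, 10.2%, 36.8% and 13.3%, and the X difference was -4.97 points. Within 250 bp the near share was 46.0% and the share of genes 11.9%. Within 1000 bp they were 58.9% and 18.9%, and the near difference was 24.7 points. With all gene types the near share was 56.0%, the median 269 bp, the inside share 64.5% and the share of genes 13.4%. With isolated summits the inside share was 59.4%, the share selected 47.8% and the share of genes 10.9%. Without chromosome 4 no value moved beyond its interval. The near difference kept its sign, from 24.7 to 30.0 points, as did the inside difference, from -12.1 to -10.8.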

Other observations

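Outside protein-coding genes and away from their boundaries, 98 of 457 single-summit peaks of 20 or more (21.4%, 95% Wilson interval 17.9 to 25.4%) lay within 500 bp of a noncoding gene, against 99 of 667 weaker ones (14.8%, 12.3 to 17.7%) and 211 of 1069 multi-summit peaks (19.7%, 17.5 to 22.2%). Of the 98, 48 were at lncRNA genes and 20 at tRNA genes.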
